A study of Mus musculus with 5 samples.

Results

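Cd8a, Cd8b1 and Cd4, the genes of the T cell coreceptors, were followed through a single-cell study of T cells in the mouse brain after stroke. They were chosen by symbol, and the 3 rows are 3 of the 2926 mouse genes in the deposited table. The cells had been sorted as CD45+ CD3+ cells from the ipsilateral brain hemisphere of wildtype C57BL/6 mice at day 14 of a photothrombotic stroke, in which light activates a dye in the vessels of the cortex and closes them. Trained mice had access to running wheels from day 2 on, and untrained mice served as their controls. Trained samples 1, 2 and 3 held 66, 124 and 168 cells and untrained samples 1 and 2 held 144 and 190 cells, 692 in all, each sorted into a well of a 384-well plate for SORT-seq, a plate-based 3′ tag method. The labels do not say how many mice each sample came from, so p-values for training reflect differences between samples that may be partly technical. Those for classes of cells weigh a difference within samples against its spread over the samples.

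A coreceptor binds the same major histocompatibility complex (MHC) molecule as the T cell receptor and brings the kinase Lck to it. CD8 on conventional T cells is a dimer of an alpha chain, encoded by Cd8a, and a beta chain, encoded by Cd8b1, and it binds class I molecules on cytotoxic T cells. CD4 acts as a single chain, binds class II molecules and marks helper and regulatory T cells. Immature thymocytes carry both coreceptors and shut 1 of them off when they choose a lineage, so mature conventional T cells usually express only CD4 or only CD8. The alpha chain can also pair with itself, on some intraepithelial lymphocytes and dendritic cells, without a beta chain.

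All 3 genes lie on chromosome 6. Cd8a and Cd8b1 are neighbours, with 0 annotated genes between them in the RefSeq annotation of GRCm38.p6 and no overlap, whereas 928 genes lie between Cd8a and Cd4. The 133 other chromosome 6 genes had a median within-sample correlation of 0.0878 with Cd8a, 0.112 with Cd8b1 and 0.103 with Cd4, against 0.0734, 0.102 and 0.105 for the 2790 genes elsewhere.

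The promoter of Cd8a is shown because Cd8a and Cd8b1 scores correlated more closely than any other pair that involves either of them, and because it is the promoter sequence at hand for the 3 genes. The window runs from 250 bases before to 50 bases after the annotated start on the plus strand (RefSeq, GRCm38.p6, chr6:71373177-71373476), and capitals mark matches to the E-box letters CANNTG, searched on both strands.
Cd8a: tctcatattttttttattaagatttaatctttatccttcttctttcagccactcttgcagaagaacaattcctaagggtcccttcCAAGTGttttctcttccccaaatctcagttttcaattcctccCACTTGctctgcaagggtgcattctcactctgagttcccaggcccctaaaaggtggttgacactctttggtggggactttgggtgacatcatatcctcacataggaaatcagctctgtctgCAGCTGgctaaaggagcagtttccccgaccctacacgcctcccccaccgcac
The E-box letters occur 3 times, at positions 86, 128 and 249 of the window, and 72.1% of 27025 mouse promoters of the same length hold at least 1 such match. The RUNX letters TGTGGT had 0 matches in the window (16.9% of promoters hold them), as had the ETS letters CCGGAA (15.2%), the GATA letters AGATAA (11.4%), TATAAA (14.2%) and the TCF/LEF letters CTTTGA (16.2%). A match or its absence describes these letters in this window only.

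The deposited values are scores and not counts. They ran from -2.12 to 3.74 over the table, 72.7% were below 0 and 0 were whole numbers, so no depth and no detection of single molecules can be read from them directly. A score above 0 was used here to call a cell high for a gene, which is a range of the score and not a cell type. Untrained sample 2 stood apart, with a median SD between cells of 0.728 over genes, against 0.370 to 0.515 in the other 4 samples. It also held 42 of the 67 cells whose mean over 8 measured myeloid markers was above 0.5, and each of the other samples held 5 to 7. That cut was not scaled to the SD of each sample, so these counts are not on 1 scale. The mean over those markers lay between -0.162 and -0.108 in the trained samples and at -0.066 and 0.034 in untrained samples 1 and 2. Of the 42 such cells in untrained sample 2, 2.38% were above 0 for Cd8a, 2.38% for Cd8b1 and 11.9% for Cd4, against 25%, 14.9% and 19.6% of its other 148 cells. Of the 25 in the other 4 samples together, 32%, 24% and 36% were, against 32.1%, 29.8% and 33.5% of their other 477 cells. The mean over 7 T cell markers (Cd3e, Cd3d, Cd3g, Cd247, Lck, Thy1 and Cd2) was above 0 in 37, 70 and 90 cells of trained samples 1 to 3 and in 78 and 70 cells of untrained samples 1 and 2. None of 4 listed B cell markers is among the rows analysed, and of 5 natural killer (NK) cell markers 2 are, both of which myeloid cells also express.

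Each coreceptor gene had a low bulk of cells and a high tail. The median Cd8a score was below 0 in all 5 samples, between -0.167 and -0.157 in the trained samples and -0.094 and -0.435 in untrained samples 1 and 2. The 90th percentile of Cd8a lay at 1.19, 1.15 and 0.961 in trained samples 1 to 3 and at 0.725 and 1.41 in untrained samples 1 and 2. Cells above 0 for Cd8a made up 34.8% (95% Wilson interval 24.5 to 46.9), 27.4% (20.3 to 35.9) and 31.0% (24.5 to 38.3) of trained samples 1 to 3 and 36.1% (28.7 to 44.2) and 20.0% (14.9 to 26.3) of untrained samples 1 and 2. The trained samples lay between the untrained ones, and the lowest share was in untrained sample 2. These intervals cover counting of cells only.

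Cd8b1 followed the same order at its low end. Cells above 0 for Cd8b1 made up 25.8%, 25% and 31.5% of trained samples 1 to 3 and 32.6% and 12.1% of untrained samples 1 and 2, so untrained sample 2 was again the lowest and the groups overlapped. For Cd4 the shares were 36.4%, 32.3% and 29.2% in the trained samples and 38.9% and 17.9% in the untrained samples, where untrained samples 1 and 2 were the highest and the lowest of all 5. Over all cells 199 were above 0 for Cd8a, 171 for Cd8b1 and 203 for Cd4.

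**Figure D1:**
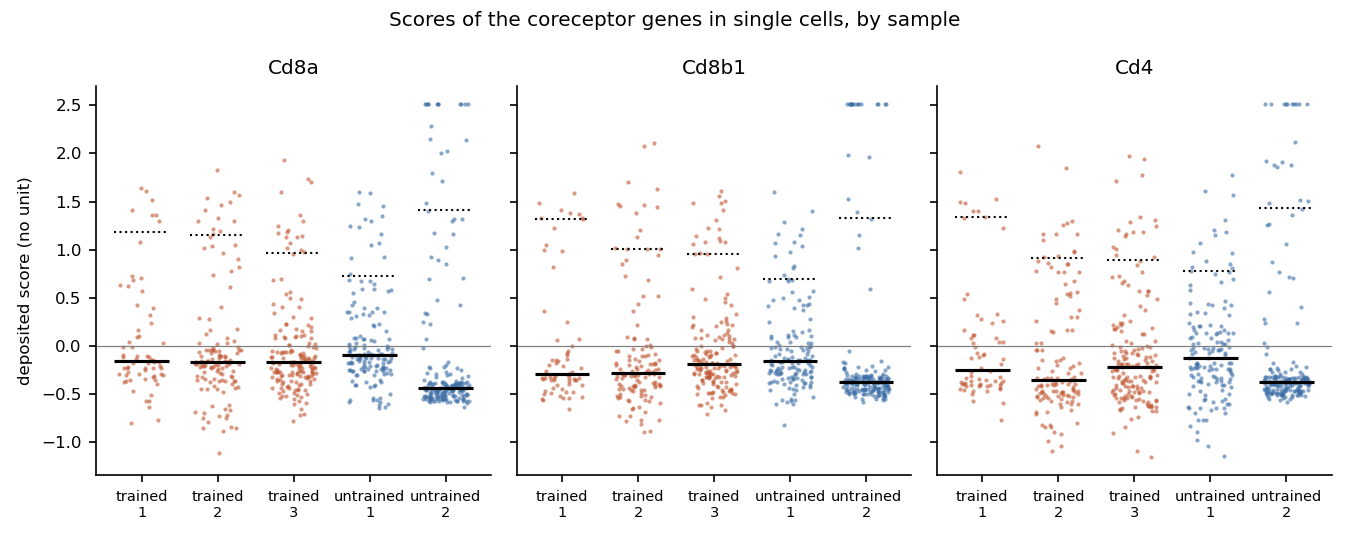
Deposited scores (no unit) of Cd8a, Cd8b1 and Cd4 in single cells, with 1 point per cell, samples along the horizontal axis, a solid bar at the median and a dotted bar at the 90th percentile. Medians are below 0 in every sample, and in untrained sample 2 the low cells form a narrow band below 0 and the highest cells stop at 2.52.

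The 3 genes varied more between cells than most measured genes. The SD of Cd8a scores was 0.606, 0.634 and 0.526 in trained samples 1 to 3 and 0.502 and 0.883 in untrained samples 1 and 2. Over the 15 combinations of gene and sample, the SD ranked between the 83.3rd and the 95.5th percentile of all genes of its sample. Scores in untrained sample 2 stopped at 2.52, and 11 cells for Cd8a, 15 for Cd8b1 and 10 for Cd4 sat at that value. There the tails of the 3 genes are cut off.

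In untrained sample 2 the low scores carried a structure that was weak or not seen in the other samples, found on plotting the genes against each other. Of its 147 cells at or below 0 for both Cd8a and Cd8b1, 143 (97.3%) lay within 0.02 of 1 straight line. For Cd8a and Cd4 it was 121 of 124 cells and for Cd8b1 and Cd4 136 of 138. The same procedure placed 28.2%, 14.8% and 5.0% of such cells on a line for Cd8a and Cd8b1 in trained samples 1 to 3, and 12.3% in untrained sample 1. Over all 3 pairs and the other 4 samples the share ran from 1.61% to 50.0%. The low scores of a cell in untrained sample 2 thus followed each other closely from gene to gene.

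Counted that way, 116 of the 190 cells of untrained sample 2 (61.1%) were on the line for all 3 genes. Only Cd4 left it in 27 cells, only Cd8a in 20 and only Cd8b1 in 5. In the remaining 22 cells at least 2 genes left the line, and by their scores 13 of these were above 0 for Cd8a and Cd8b1 and not for Cd4, 5 for all 3 genes and 1 for Cd8a and Cd4. Cells with Cd8a alone off the line were thus more numerous in that sample than cells with Cd8b1 alone off it.

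Cd8a and Cd8b1 scores varied together from cell to cell. Their scores correlated at Pearson r = 0.625, 0.612 and 0.503 in trained samples 1 to 3 and at 0.486 and 0.724 in untrained samples 1 and 2. The mean over the 5 samples was 0.590 ± 0.098 (SD), and for each of the 2 genes the other was the closest of the 2925 other genes. The next closest gene, Nkg7, reached 0.348 with Cd8a and 0.446 with Cd8b1. Cells share a library and a per-cell level within each sample, so these correlations are descriptions and carry no test.

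The pairing also showed in counts of cells. Of the 199 cells above 0 for Cd8a, 59.3% were above 0 for Cd8b1, against 10.8% of the cells at or below 0 for Cd8a. By sample the shares were 56.5% against 9.30%, 64.7% against 10% and 71.2% against 13.8% in trained samples 1 to 3, and 53.8% against 20.7% and 47.4% against 3.29% in untrained samples 1 and 2. The pairing held in every sample and was not complete in any. At a threshold of 1, 44 cells were above it for both genes, where the products of the 2 shares within each sample sum to 8.37. At a threshold of 0, 81 cells were above it for Cd8a alone and 53 for Cd8b1 alone. The gap was widest in untrained sample 2, with 20 against 5, and the counts were 10 against 4, 12 against 9 and 15 against 16 in trained samples 1 to 3 and 24 against 19 in untrained sample 1. Stated from the beta chain, 69.0% of the 171 cells above 0 for Cd8b1 were also above 0 for Cd8a.

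Cd4 was set apart from the CD8 genes mainly at thresholds above 0, in counts summed over samples. The products of shares set beside these counts were taken within each sample and then summed over samples. At a score above 1, 3 cells carried Cd4 with Cd8a and 3 carried Cd4 with Cd8b1, where the products of the shares give 7.61 and 7.07. Untrained sample 1 held 1 cell of each of these pairs, against products of 0.667 and 0.5, and the other samples fell below their products. At a score above 0.5 the counts were 7 and 8, against products of 19.3 and 17.5. At a score above 0.25 these counts were 18 and 17, against products of 30.7 and 26.3. There only untrained sample 2 exceeded its product, for Cd4 with Cd8b1 (4 against 3.75). At a score above 0, 52 cells carried Cd4 with Cd8a and 52 carried Cd4 with Cd8b1, against products of 61.5 and 54.0, so at that threshold the pairs were nearly as frequent as the shares alone give. A total of 36 cells were above 0 for all 3 genes, 14 of them in trained sample 3 and 14 in untrained sample 1. The cells above 0 for Cd4 alone numbered 135, those above 0 for both CD8 chains without Cd4 numbered 82, and 305 cells were above 0 for none of the 3 genes.

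The samples differed in how often Cd4 was high together with a CD8 gene. Of the cells above 0 for Cd4, 29.2%, 5.00% and 36.7% were above 0 for Cd8a in trained samples 1 to 3, against 38.1%, 38.1% and 28.6% of the cells at or below 0 for Cd4. The shares were 33.9% against 37.5% in untrained sample 1 and 17.6% against 20.5% in untrained sample 2. Trained sample 2 showed the widest gap, and in trained sample 3 the direction was the opposite. For Cd8b1 the shares were 20.8% against 28.6%, 10% against 32.1% and 34.7% against 30.3% in trained samples 1 to 3, and 37.5% against 29.5% and 14.7% against 11.5% in untrained samples 1 and 2. Cells above 0 for Cd4 were thus above 0 for Cd8b1 more often, not less, in 3 of 5 samples.

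The correlation of Cd4 with Cd8a was negative in all 5 samples, at -0.260, -0.318 and -0.031 in trained samples 1 to 3 and at -0.019 and -0.069 in untrained samples 1 and 2. Its mean of -0.139 put Cd8a in place 85 from the bottom of the 2925 genes ranked by correlation with Cd4. With Cd8b1 the correlation of Cd4 was negative in 3 samples and positive in 2, with a mean of -0.057. By rank correlation the means were 0.006 for Cd4 with Cd8a and 0.159 for Cd4 with Cd8b1, so the sign of these averages depends on the measure. In untrained sample 2 the rank correlations, 0.322 and 0.481, include the cells on the line.

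**Figure D2:**
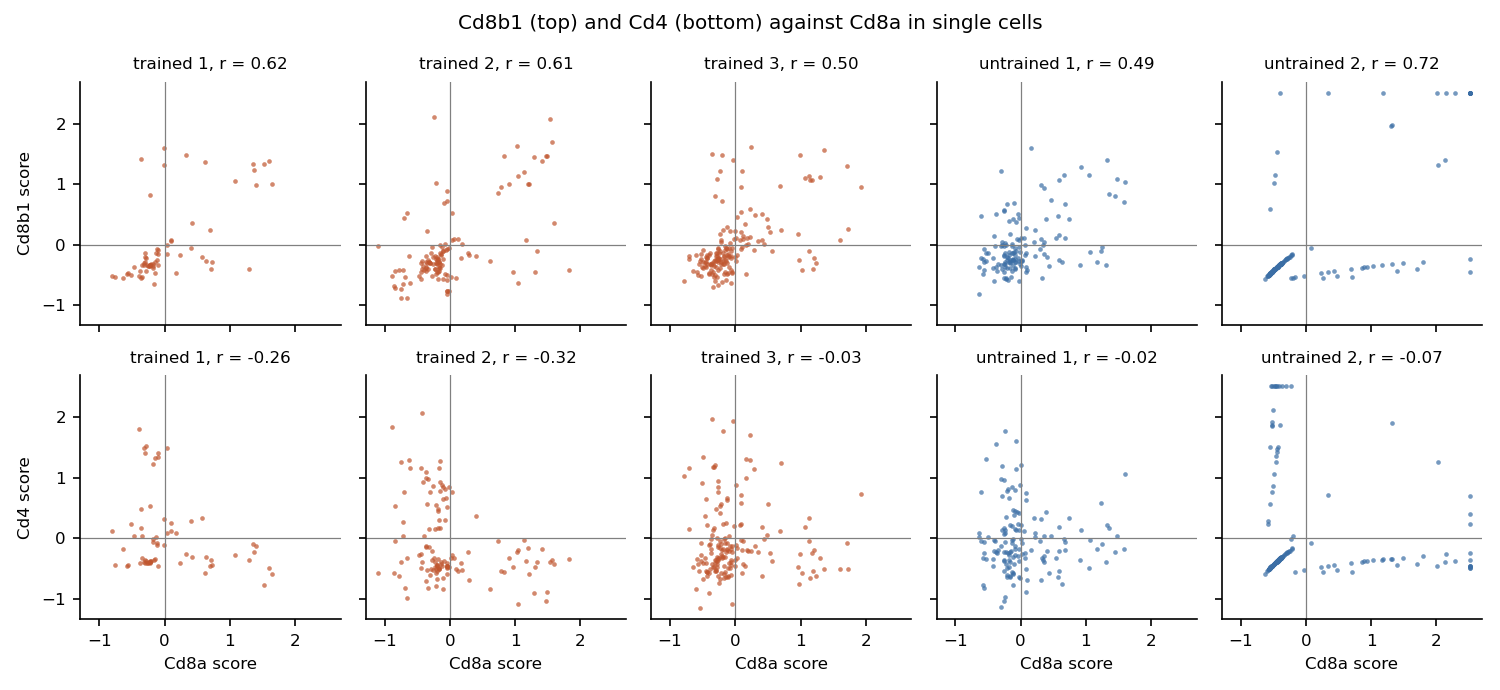
Scores (no unit) of Cd8b1 (upper row) and Cd4 (lower row) on the vertical axis against Cd8a on the horizontal axis, 1 panel per sample with 1 point per cell and Pearson r in each title. Cd8a and Cd8b1 share an upper right group of cells in every sample, and the low cells of untrained sample 2 lie on a line.

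The scores of all 3 genes also varied with the mean score of the cell. That mean, over all mouse genes, correlated with Cd8a at 0.262, with Cd8b1 at 0.341 and with Cd4 at 0.345 on average over samples, and it correlated with the first principal component of each sample at 0.963 to 0.974. Given that mean, the partial correlation of Cd4 with Cd8a was -0.470, -0.391 and -0.136 in trained samples 1 to 3 and -0.137 and -0.154 in untrained samples 1 and 2. Its mean of -0.258 was then the lowest of all 2925 genes, both among the genes ranked by Cd4 and among those ranked by Cd8a. Cd4 with Cd8b1 averaged -0.198 and was negative in 5 of 5 samples, with Cd8b1 in place 11 from the bottom for Cd4. Cd8a with Cd8b1 was at 0.551. What sets the mean score of a cell was not tested.

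Cells were next split by each coreceptor gene. For every sample the mean score of each gene in cells above 0 was set against that in the other cells, and the differences were tested with limma with sample as a block and Benjamini-Hochberg adjustment over the 2925 genes left after removing the gene that made the split. Of these, 26.1% were higher and 1.71% lower in cells above 0 for Cd8a, 34.8% and 3.42% in cells above 0 for Cd8b1, and 44.1% and 3.52% in cells above 0 for Cd4. Cells high for any of the 3 genes thus tended to score higher over most genes, and the median difference over all genes was 0.078, 0.094 and 0.108 in the 3 splits. Without trained sample 3 the genes called higher numbered 464, 572 and 782 in the Cd8a, Cd8b1 and Cd4 splits, against 763, 1018 and 1291 with all samples, and without trained sample 2 the Cd8a split gave 465. When each gene was first regressed on the mean score of the cell, within each sample, and the cells were split again by the regressed score of the coreceptor gene, the median difference was 0.000 to -0.003 and few genes passed. That regression gives every cell of a sample the same mean over all genes, so differences over all genes must average close to 0. For the Cd8a split 0% of genes were higher and 0% lower. For the Cd8b1 split 0.0342% (1 gene) were higher and 0% lower, and for the Cd4 split 0.342% (10 genes) were higher and 0.547% (16 genes) lower. At an unadjusted p under 0.05, 276, 351 and 413 genes passed in the 3 regressed splits. In a version added after seeing the data, the scores were regressed but the cells were kept in the classes of the deposited scores. Then 0.0684% (Cd8b1 and Rps26) were higher and 0% lower in the Cd8a split and 0% and 0% in the Cd8b1 split, where 375 genes had an unadjusted p under 0.05, and in the Cd4 split 0.0684% (2 genes) were higher and 0.376% (11 genes) lower.

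With all 5 samples, the partner chain had the largest difference of all genes in either CD8 split. Cd8b1 averaged 0.412, 0.496 and 0.346 in cells above 0 for Cd8a and -0.207, -0.266 and -0.180 in the other cells of trained samples 1 to 3. It averaged 0.237 and 0.899 in cells above 0 for Cd8a of untrained samples 1 and 2, against -0.144 and -0.334 in the other cells. The classes did not overlap, and the difference was 0.704 ± 0.079 (SE; limma, adjusted p = 3.69e-06). Cd8a was higher by 0.871 ± 0.144 in cells above 0 for Cd8b1 (adjusted p = 0.000962), again in 5 of 5 samples. Without untrained sample 2 the ribosomal protein gene Rpsa had the larger difference in both, 0.637 against 0.572 for Cd8b1 in the Cd8a split and 0.655 against 0.640 for Cd8a in the Cd8b1 split. Regressed on the cell mean and split again, the differences were 0.536 and 0.739, the largest of all genes, with limma adjusted p = 0.113 and 0.102. With the deposited classes kept they were 0.576 and 0.755 (adjusted p = 0.0337 and 0.179).

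Cd4 fell in cells above 0 for Cd8a, and its difference did not pass in cells above 0 for Cd8b1. Cd4 averaged -0.149, -0.400 and 0.023 in cells above 0 for Cd8a and 0.115, 0.042 and -0.098 in the other cells of trained samples 1 to 3. Its means were -0.098 and -0.2 in cells above 0 for Cd8a of untrained samples 1 and 2, against 0.013 and -0.009 in the other cells. The difference was -0.177 ± 0.060 (limma, adjusted p = 0.0337), in 4 of 5 samples, with trained sample 3 the other way. That call needed trained samples 1 and 2 and both untrained samples: without trained sample 2 the difference was -0.111 (adjusted p = 0.220), and without any of the other 3 the adjusted p was no longer under 0.05. In cells above 0 for Cd8b1 the difference of Cd4 was -0.121 ± 0.059 (adjusted p = 0.120).

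Read from Cd4, the differences were -0.163 ± 0.068 for Cd8a (limma, adjusted p = 0.0666) and -0.052 ± 0.065 for Cd8b1 (adjusted p = 0.497). After regression on the cell mean and a new split by the regressed Cd4 score both passed. Regressed Cd8a averaged -0.237, -0.310 and -0.105 in cells above 0 for regressed Cd4, against 0.225, 0.155 and 0.024 in the other cells of trained samples 1 to 3. The means in untrained samples 1 and 2 were 0.040 and -0.335, against 0.065 and 0.007. The difference was -0.285 ± 0.056 (adjusted p = 0.0231), and that of Cd8b1 was -0.216 ± 0.049 (adjusted p = 0.0422), each lower in 5 of 5 samples. With the deposited classes kept, Cd8a passed (-0.285, adjusted p = 0.0271) and Cd8b1 did not (-0.206, adjusted p = 0.112).

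**Figure D3:**
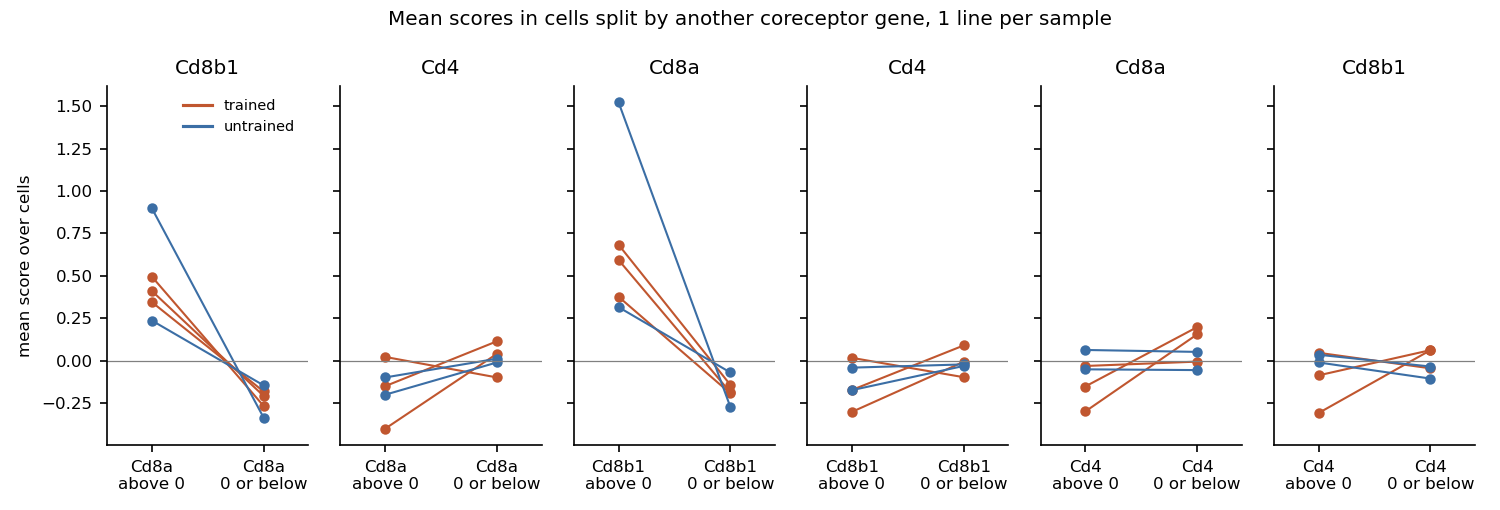
Mean score (no unit, vertical axis) of the gene named above each panel in cells above 0 and in cells at or below 0 for the gene named on the horizontal axis, 1 line per sample. The partner CD8 chain is lower in cells at or below 0 along all 5 lines where the split gene is the other CD8 chain, and the lines that involve Cd4 are flatter and cross.

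The genes closest to Cd8a and Cd8b1 were the partner chain, Nkg7 and ribosomal protein genes. Nkg7, a protein of cytotoxic granules and the 1 gene of the cytotoxic list among the first 10 places of either, came second for both, with r between 0.299 and 0.417 for Cd8a and between 0.387 and 0.532 for Cd8b1 over the samples. Rpl17 and Rpl32, proteins of the large ribosomal subunit, followed at 0.337 and 0.322 for Cd8a and at 0.387 each for Cd8b1. Ribosomal protein genes held 5 of the first 10 places for Cd8a, 8 for Cd8b1 and 2 for Cd4, out of 69 measured. Ms4a4b, a membrane protein of T cells, and Ptprcap, a partner of the phosphatase CD45, held places 6 and 10 for Cd8a at 0.312 and 0.305. The chemokine gene Ccl5 held places 12 and 11, at 0.303 for Cd8a and 0.357 for Cd8b1.

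The genes closest to Cd4 were of another kind. Ly6a, the surface antigen Sca-1 of activated and memory T cells, led with a mean r of 0.357 and 0.279 to 0.491 over the samples. H2-K1 and H2-D1, heavy chains of class I MHC, stood at 0.328 and 0.314, Znrf1, a ubiquitin ligase, at 0.326 and Tmsb4x, an actin-binding peptide, at 0.325. Given the cell mean, and among genes with the same sign in all 5 samples, Ly6a still led at 0.248, and Znrf1, Slfn5, the interleukin-7 receptor gene Il7r, the splicing factor gene Sf3b4 and the T cell surface protein gene Cd5 stood at 0.210, 0.194, 0.193, 0.189 and 0.187. Trained sample 1 was the highest for Cd5, at 0.448 against 0.058 to 0.194 elsewhere, for Znrf1, at 0.470 against 0.046 to 0.252, and for Sf3b4, at 0.353 against 0.087 to 0.231. The genes lowest with Cd4 given the cell mean were Cd8a, Ctsw, Ccl5, Cd7 and Nkg7, between -0.258 and -0.231, and for each the sign was the same in 5 of 5 samples. Ctsw encodes cathepsin W, a protease of cytotoxic lymphocytes, and Cd7 a surface receptor of T and NK cells.

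At the bottom of all 3 raw lists stood some of the same transcripts. A630089N07Rik and Gm10785 were among the 5 lowest genes for each of Cd8a, Cd8b1 and Cd4, between -0.185 and -0.289, and Kcnq1ot1, a long noncoding RNA, was so for Cd8b1 and Cd4. Given the cell mean the same correlations lay between -0.030 and 0.040. The genes lowest with Cd8a given the cell mean were Cd4 and 4 markers of the myeloid list, Ctsb, Cst3, Tyrobp and C1qb, at -0.244 to -0.210. Those lowest with Cd8b1 were Atp6ap1, Maf, Itm2c, Cd4 and Sgk1, at -0.225 to -0.189. Maf is a transcription factor of helper and regulatory T cells and of macrophages. The share of genes with the same sign of r in all 5 samples was 39.4% for Cd8a, 50.3% for Cd8b1 and 54.3% for Cd4, and 13.9%, 13.8% and 12.3% given the cell mean.

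**Figure D4:**
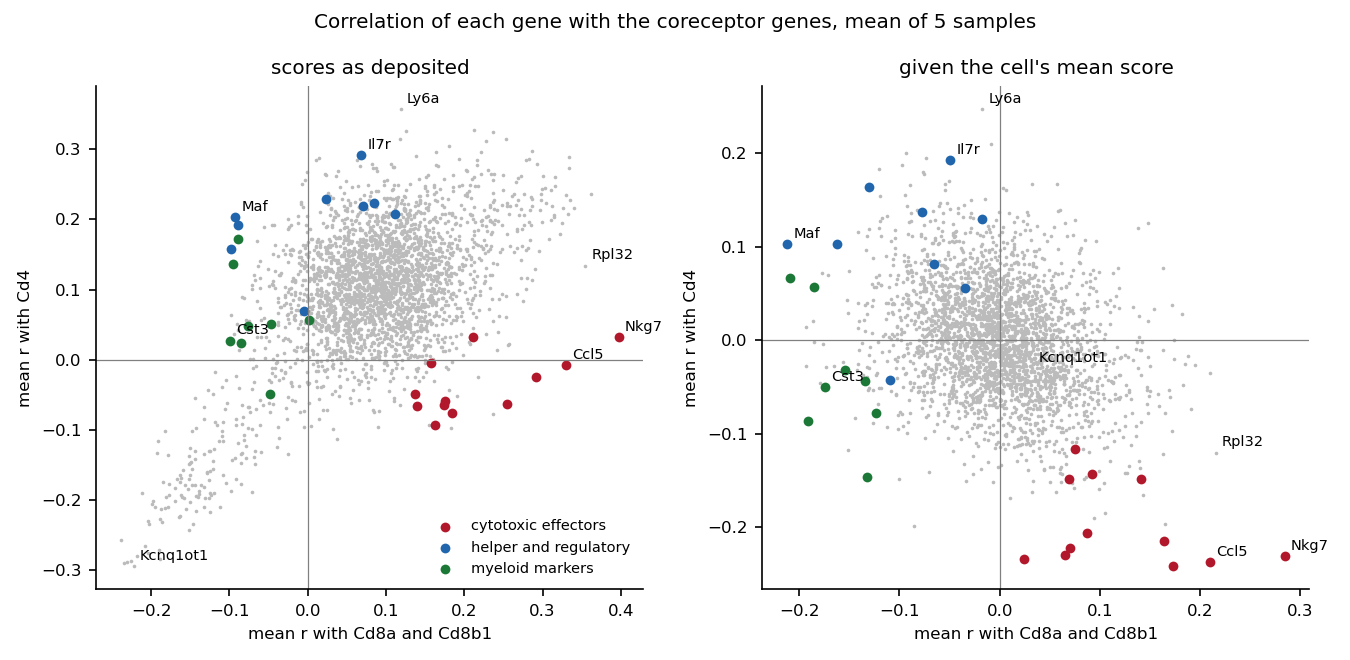
Mean within-sample correlation of each gene with Cd4 (vertical axis) against its mean correlation with Cd8a and Cd8b1 (horizontal axis), for scores as deposited (left) and given the mean score of the cell (right), 1 point per gene. Cytotoxic effector genes lie to the right and helper and regulatory genes to the left and above, with Nkg7 farthest right among the genes shown and Ly6a highest.

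Most genes of the cytotoxic list were higher in both CD8 splits. Of 12 measured cytotoxic effector genes, 11 were higher in cells above 0 for Cd8a and 11 in cells above 0 for Cd8b1, where 26.1% and 34.8% of all genes were, with medians of 0.242 and 0.281 over the list, and Tbx21, encoding the transcription factor T-bet, did not pass in either (differences of 0.104 and 0.107). In cells above 0 for Cd4, 0 of the 12 passed in either direction, with a median of -0.069, where 44.1% of all genes were higher and the median over all genes was 0.108. The difference between the splits was not tested. Nkg7 averaged 0.582, 0.668 and 0.582 in cells above 0 for Cd8b1, against 0.039, 0.004 and -0.060 in the other cells of trained samples 1 to 3. In untrained samples 1 and 2 it averaged 0.496 and 1.04 in cells above 0 for Cd8b1, against -0.094 and -0.077 in the other cells. The classes did not overlap, and the difference was 0.712 ± 0.072 (limma, adjusted p = 0.000198).

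Ccl5 was higher by 0.609 ± 0.075 in cells above 0 for Cd8a and by 0.748 ± 0.095 in cells above 0 for Cd8b1 (limma, adjusted p = 7.84e-06 and 0.000275). Ctsw was higher by 0.530 ± 0.077 in cells above 0 for Cd8b1 and Ly6c2, a surface antigen of memory CD8 T cells, by 0.368 ± 0.052 in cells above 0 for Cd8a. After regression on the cell mean and a new split, Nkg7 in the Cd8b1 split was the 1 gene called in either CD8 split (0.411 ± 0.055, adjusted p = 0.0108), and with the deposited classes kept it did not pass (0.388, adjusted p = 0.112). All 12 cytotoxic genes kept a positive difference in both CD8 splits after the regression and new split, with list medians of 0.101 and 0.124. The medians over all genes were 0.000 and -0.003, and the regression itself holds the average over genes near 0. In the regressed Cd4 split 7 of the 12 fell, namely Ccl5, Ly6c2, Ctsw, Xcl1, Klrd1, Nkg7 and Cd7, by 0.220 to 0.316, and the list median was -0.238. Of all genes 0.547% were lower in that split. Ctsw fell by 0.261 ± 0.041 (adjusted p = 0.00562), in 5 of 5 samples. The same 7 genes fell with the deposited classes kept, where 0.376% of all genes were lower, with a list median of -0.263. Klrd1 encodes CD94, a chain of NK receptors that CD8 T cells also carry, and Xcl1 a chemokine of activated CD8 T cells and NK cells.

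Of 9 measured helper and regulatory genes, 8 were higher in cells above 0 for Cd4, where 44.1% of all genes were, with a list median of 0.246. In the Cd8a and Cd8b1 splits 0 were called higher, 5 and 6 of the 9 had positive differences and the list medians were 0.021 and 0.055. Over all genes 26.1% and 34.8% were higher in these 2 splits, and the medians were 0.078 and 0.094. The difference between the splits was not tested. The 8 were Icos, Maf, Tnfrsf18, Nrp1, Capg, Cd44, Cd82 and Il7r, and Ikzf2, encoding the regulatory T cell factor Helios, had a difference of 0.049. Icos, a costimulatory receptor of helper T cells, was the 1 gene of the list that fell in cells above 0 for Cd8a, by 0.140 (adjusted p = 0.0243). Il7r averaged 0.275, 0.050 and 0.122 in cells above 0 for Cd4, against -0.176, -0.074 and -0.103 in the other cells of trained samples 1 to 3. The means in untrained samples 1 and 2 were 0.110 and 0.312, against -0.201 and -0.141. Every sample showed the same direction, by unequal amounts, and the fitted difference was 0.313 ± 0.053 (limma, adjusted p = 0.00264). Regressed on the cell mean, 0 of the 9 passed in the Cd4 split, where 0.342% of all genes were higher and 0.547% lower. Of the 9, 8 were positive and the list median was 0.099.

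Ly6a had the largest difference among the genes that were higher in the Cd4 split. It averaged 0.302, 0.343 and 0.460 in cells above 0 for Cd4, against -0.198, -0.086 and -0.146 in the other cells of trained samples 1 to 3. Untrained samples 1 and 2 gave 0.291 and 0.878, against -0.177 and -0.199. The classes did not overlap. The difference was 0.616 ± 0.078 (limma, adjusted p = 0.00107), and 0.361 ± 0.054 after regression (adjusted p = 0.00562), where Slfn5 was next at 0.238. Of the 10 genes higher in that regressed split, Ly6a, Slfn5 and the actin-nucleating subunit gene Actr2 (0.172) were also higher before regression, and 5 (Cxcr2, D830005E20Rik, 9930111J21Rik1, 5530601H04Rik and Mageb16-ps1) were lower before it. With the deposited classes kept, Ly6a and Slfn5 were the 2 genes higher, at 0.366 and 0.221.

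Receptor and signalling genes were higher with every coreceptor gene before regression. Of 19 genes of the receptor complex and its proximal signalling, 11 passed in the Cd8a split, 13 in the Cd8b1 split and 17 in the Cd4 split, all higher, where 26.1%, 34.8% and 44.1% of all genes were. Lck, the kinase that both coreceptors bind, was higher by 0.424, 0.472 and 0.310 in the 3 splits, and Cd3e, a chain of the receptor complex, by 0.329, 0.463 and 0.232. Cd3d passed in both CD8 splits (0.296 and 0.349) and not in the Cd4 split (0.124, adjusted p = 0.135). Cd5, Cd6 and Cd28, which tune or costimulate the receptor signal, passed in the Cd4 split (0.262, 0.216 and 0.212) and in neither CD8 split, where they lay between -0.027 and 0.097. Whether the splits differ in these genes was not tested. After regression 0 of the 19 passed in any split.

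The ligands of CD8 were higher with Cd4 as well. The 4 measured genes of the class I pathway, B2m, H2-K1, H2-D1 and H2-T23, passed in all 3 splits. Of all genes, 26.1%, 34.8% and 44.1% were higher in the Cd8a, Cd8b1 and Cd4 splits. H2-D1 was higher by 0.442 ± 0.058 in cells above 0 for Cd4, by 0.156 ± 0.048 in cells above 0 for Cd8a and by 0.217 ± 0.067 in cells above 0 for Cd8b1 (limma, adjusted p = 0.00107, 0.0222 and 0.0244). The class II genes of the list were not analysed here. After regression 0 of the 4 passed.

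Of 10 measured regulators of the choice between CD4 and CD8 fates, 5 were higher in the Cd8a split, 6 in the Cd8b1 split and 7 in the Cd4 split, beside 26.1%, 34.8% and 44.1% of all genes. Runx3, which silences Cd4 in CD8 T cells, was higher in all 3 splits, by 0.159, 0.164 and 0.178. Gata3, needed for CD4 T cell development, was higher in cells above 0 for Cd4 (0.222 ± 0.042, limma, adjusted p = 0.0036) and had differences of 0.026 and 0.083 in the CD8 splits. Tox, needed for CD4 T cell development too, passed in the Cd8a split alone (0.181), with 0.151 and 0.094 in the others. Zbtb7b, the main CD4 lineage factor, was not analysed here. After regression 0 of the 10 passed in any split.

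Among 9 adhesion and homing genes, 6 were higher in each split, beside the same shares of all genes. Itgb1, Itgb7, Cxcr3, Klf2 and Ly6a were in all 3 sets. Cxcr6, a receptor of tissue-resident T cells, was higher in the CD8 splits (0.246 and 0.392) and had a difference of 0.029 in the Cd4 split, whereas S1pr1, the receptor for exit from tissue, was higher in the Cd4 split (0.232) and had 0.070 in each CD8 split. Of the 8 myeloid markers, 2 were called lower in the Cd8a split, Cst3 and Ctsb (-0.231 and -0.191), and 0 in the Cd8b1 split, with negative differences for all 8 in both. Over all genes 1.71% and 3.42% were lower in these splits. Ctsb was higher by 0.218 in the Cd4 split. Of the 7 T cell markers 5, 6 and 6 passed in the Cd8a, Cd8b1 and Cd4 splits, all higher. The myelin gene Mbp was higher in the CD8 splits (0.260 and 0.264). Of the 69 ribosomal protein genes, 66, 67 and 65 passed in the Cd8a, Cd8b1 and Cd4 splits, all higher, and 0 after regression. The part of depth or of other cells in these values was not tested.

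When only the cells with a T cell marker mean above 0 were kept, fewer genes passed. The Cd8a split then gave 26 genes higher and 1 lower, which was Cd4, the Cd8b1 split gave 1 higher and 0 lower, and the Cd4 split 0 and 0 (427 at an unadjusted p under 0.05). Fewer cells entered these fits. The correlations among the coreceptor genes were larger in those cells. Cd8a with Cd8b1 averaged 0.650, Cd4 with Cd8a -0.276 and Cd4 with Cd8b1 -0.228, the last 2 negative in 5 of 5 samples.

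Cells with both CD8 chains differed most from the rest, as a description without a test. Nkg7 averaged 0.828 over sample means in the 118 cells above 0 for both chains, 0.124 in the 81 cells with Cd8a alone, 0.297 in the 53 cells with Cd8b1 alone and -0.066 in the 440 cells with neither. The Nkg7 value for Cd8b1 alone rests on 4 cells of trained sample 1, which averaged 0.989, against 0.013 to 0.194 in the other 4 samples, and for Cd8a alone the samples ran from -0.119 to 0.301. Ccl5 gave 0.858, 0.321, 0.465 and -0.050, with 1.18 in those 4 cells and 0.182 to 0.354 for Cd8b1 alone in the other samples. Cd3e gave 0.527, 0.036, 0.138 and -0.043 in the same order. The T cell marker mean was 0.386, 0.043, 0.084 and -0.050, and the mean over all genes 0.095, -0.022, -0.035 and -0.047. On these averages, cells with a single CD8 chain were thus nearer to cells with neither chain in T cell markers and in the mean over all genes. Both untrained samples showed this, but not every trained sample did. In the mean over all genes, cells with Cd8a alone in trained samples 1 and 2 were nearer to cells with both chains. Cells with Cd8b1 alone in trained sample 3 were so too. In T cell markers this held for both kinds of cells in trained sample 1 and for Cd8b1 alone in trained sample 3. The 36 cells above 0 for all 3 genes had a mean over all genes of 0.111, and the 305 cells above 0 for none had -0.091.

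No difference with training was called for Cd8a, Cd8b1 or Cd4. Mean Cd8a scores were 0.071, 0.009 and -0.012 in trained samples and 0.057 and -0.054 in untrained samples, and the groups overlapped. The difference, trained minus untrained, was 0.021 ± 0.035 (SE; limma on mean scores per sample, adjusted p = 0.886). Cd8b1 averaged -0.022 ± 0.033 in trained samples (SD, n = 3) and -0.047 ± 0.057 in untrained samples (SD, n = 2), a difference of 0.025 ± 0.030 (limma, adjusted p = 0.847). Cd4 averaged -0.039 ± 0.055 in trained samples and -0.037 ± 0.014 in untrained samples, a difference of -0.002 ± 0.030 (limma, adjusted p = 0.992). Over all 2926 genes 0% passed, and 226 had an unadjusted p under 0.05. Untrained sample 2 held most of the myeloid-marker cells and the widest scores. In that sample the mean was 0 for 1632 rows, and the highest score of 1335 rows, these 3 genes among them, was 2.52. Scores centred within a sample carry no level to set against other samples. This test therefore cannot decide whether the level of the 3 genes differed with training.

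Shares and correlations gave no call either. Cells above 0 made up 31.1% ± 3.72 of trained and 28.1% ± 11.4 of untrained samples for Cd8a, 27.4% ± 3.58 and 22.4% ± 14.5 for Cd8b1, and 32.6% ± 3.61 and 28.4% ± 14.8 for Cd4 (SD). The correlation of Cd4 with Cd8a averaged -0.203 ± 0.152 in trained and -0.044 ± 0.035 in untrained samples, and the samples overlapped (two-sided exact permutation p = 0.4). Over 9 such values the exact p was between 0.4 and 1 and the adjusted p between 0.9 and 1, and 3 samples against 2 cannot give a p below 0.2 in this test. Without untrained sample 2 the sign of the difference in the share above 0 turned for all 3 genes, to -5.04 percentage points for Cd8a, -5.20 for Cd8b1 and -6.29 for Cd4.

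**Figure D5:**
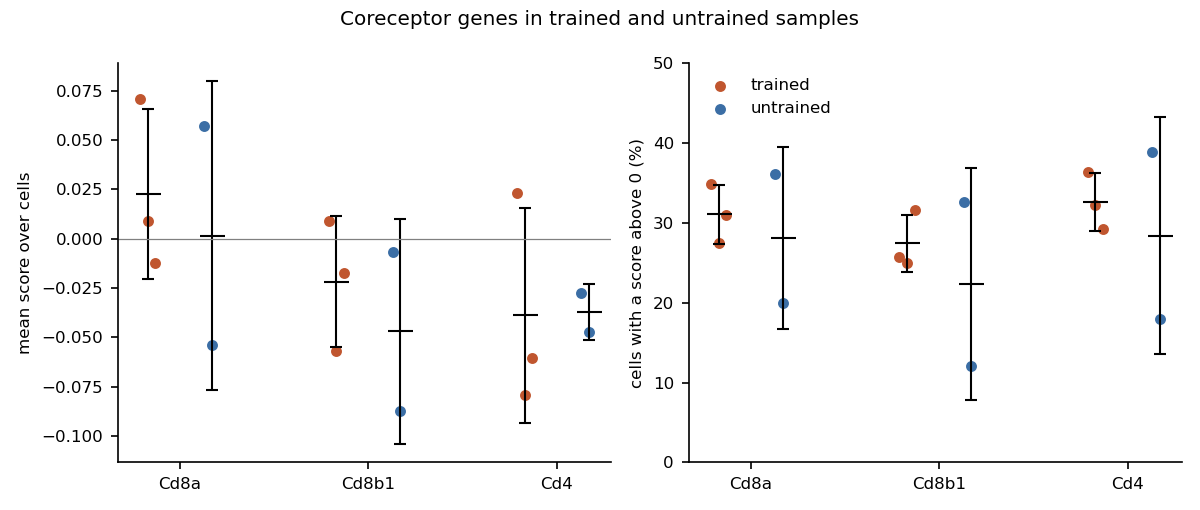
Mean score over cells (left, no unit) and share of cells with a score above 0 (right, %) of Cd8a, Cd8b1 and Cd4, with 1 point per sample, trained left of untrained, and bars at the mean ± SD of 3 trained and 2 untrained samples. The groups overlap for all 3 genes, and the lowest untrained share of each gene, 12.1% to 20.0%, is untrained sample 2.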

How the data were processed

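Reads of SORT-seq libraries from CD45+ CD3+ cells of 5 samples had been processed with Cell Ranger, per the submitters' processing notes, and neither aligner settings nor genome build nor normalisation is stated in them. The deposited main table is named a count matrix, but its values are scores, and the authors' scaling is not stated. In untrained sample 2 the highest score of 1335 rows was 2.52, the square root of the quotient of 190 (its cells) and 30, and the mean was 0 for 1632 rows (tolerance 1e-06). Of 331 well names 221 occur in more than 1 sample, and 0 cells had the same values as another. No counts are given, so depth is unknown and no precision from depth can be stated. A second deposited table of 384 columns headed by barcodes repeats the first 384 columns of the main table and was not used.

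Samples were grouped by the labelled treatment (3 trained, 2 untrained) and cells by the sample number in their names. Scores were averaged per sample, or per sample and class of cells, and fitted with limma 3.58.1 (R 4.3.3), two-sided, with Benjamini-Hochberg adjustment at 0.05 over all mouse genes. Correlations were computed within each sample and averaged. Single values were compared by exact permutation over the 10 splits of samples, doubling the smaller tail (scipy 1.17.1, numpy 2.4.6, pandas 2.3.3, Python 3.11.15, figures with matplotlib 3.10.9). Promoter letters came from RefSeq, with 1 of the 3 genes matched. Genes named were the members, the 10 highest and 5 lowest correlates, the 5 largest differences of each split and direction, up to 4 per gene list in the split of smallest p, and counts or values over the lists. Genes named outside that rule were chosen after their values were seen. The members and lists were chosen with earlier results of these data known. The line through the low scores, the regression on the first principal component and the regression with classes kept from the deposited scores were added after seeing the data. On simulated scores the splits recovered 85, 86 and 87 of 100 genes changed by 0.3 (Cd8a, Cd8b1 and Cd4), among 2925 genes, and the training fit 100 of 100 among 2926. Unchanged genes called numbered 4, 9 and 10 in the splits and 14 in the training fit. The simulated noise was independent between genes, without the level that genes of a cell share in these data. Results for 1 gene that the naming rule selects are not reported here.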

Additional observations from a re-analysis of the deposited data

Results flagged for a closer look

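In the split by Cd4 the difference of Cd8a went the opposite way in the groups. Cells above 0 for Cd4 had less Cd8a than the other cells in all 3 trained samples (mean difference -0.276) and slightly more in both untrained samples (0.008), so the trained minus untrained difference was -0.284. The item was picked from the named genes and pairs because its signs were opposite in the groups. That choice fixes the two-sided exact permutation p at 0.2, the smallest that 3 samples against 2 can give, so it is no test. After regression on the cell mean and a new split by the regressed Cd4 score Cd8a was lower in 5 of 5 samples.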

How the results depend on the processing

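No paired analysis was possible because the labels give no replicate numbers shared between the groups. Counts of genes higher and lower ranged, leaving out each sample in turn, from 464 to 910 and 23 to 74 (Cd8a split), 572 to 1123 and 69 to 113 (Cd8b1 split) and 782 to 1160 and 82 to 103 (Cd4 split), and training gave 0 to 3 calls (3 without untrained sample 1). Regressed on the cell mean the counts were 0 and 0, 1 and 0, and 10 and 16, on the first principal component 3 and 0, 9 and 0, and 5 and 4, and in T marker cells 26 and 1, 1 and 0, and 0 and 0. At a threshold of 0.25 the Cd4 split gave 745 higher. These 2 regressions also redraw the classes from the regressed scores. With classes kept (added after seeing the data) the cell mean gave 2 and 0, 0 and 0, and 2 and 11.

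Regressed on the cell mean, Cd8b1 in the Cd8a split was 0.536, Cd4 there -0.284 (-0.283 on the component) and Cd8a in the Cd8b1 split 0.739 (0.999 in T marker cells), none called. In the Cd4 split Cd8a was -0.285, -0.258 on the component and -0.263 on SD-scaled scores, and Cd8b1 -0.216 on the cell mean, and these were called. With classes kept Cd4 in the Cd8a split was -0.310 and Cd8a in the Cd8b1 split 0.755, not called, and Cd8a in the Cd4 split -0.285, called. Leaving out samples, Cd4 in the Cd8a split ranged from -0.252 to -0.111, and in the Cd4 split Cd8a ranged from -0.206 to -0.090 and Cd8b1 from -0.089 to 0.027 (0.027 without trained sample 2), with Cd8a called without either untrained sample. The means for Cd4 with Cd8a and Cd8b1 were 0.00593 and 0.159 by rank, and for Cd8b1 -0.198, -0.195 and -0.228 given the cell mean, given the component and in T marker cells.

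These transcripts, lower in the splits, turned positive, on the cell mean and the component. With the mean over all genes held equal in all cells of a sample, differences of genes must offset each other on the cell mean. A630089N07Rik gave 0.045 and 0.111 (Cd8a split), 0.050 and 0.131 (Cd8b1) and 0.115 and 0.082 (Cd4). Gm10785 gave 0.040 and 0.110, 0.073 and 0.159, and 0.123 and 0.083. Kcnq1ot1 gave 0.056 and 0.134, 0.062 and 0.152, and 0.112 and 0.080. Gm17821 gave 0.051 and 0.142, 0.073 and 0.174, and 0.125 and 0.104. With classes kept, A630089N07Rik gave 0.051, 0.013 and 0.039, Gm10785 0.081, 0.056 and 0.036, Kcnq1ot1 0.091, 0.024 and 0.016, Gm17821 0.087, 0.032 and 0.042, and Tpt1 -0.025 (Cd4 split). In the Cd4 split mtCo1 was -0.032, B2m -0.021 and Tpt1 -0.034 on the cell mean, and Tpt1 -0.0049 on the component and -0.020 in T marker cells. Partial correlations of Cd8a turned to 0.016 (A130077B15Rik), 0.040 (A630089N07Rik) and 0.038 (Gm10785), and of Cd8b1 to 0.00767 (A630089N07Rik), 0.014 (Kcnq1ot1) and 0.012 (Gm10785).

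Training differences, not called, were -0.109 for Cd8a and -0.033 for Cd8b1 in T marker cells and -0.029 and -0.016 without myeloid-marker cells, and the Cd8a share differed by -0.446 points above 0.25. Leaving out samples they ranged from -0.034 to 0.076 (Cd8a), -0.015 to 0.066 (Cd8b1) and -0.033 to 0.019 (Cd4). Shares ranged from -5.04 to 11.1 (Cd8a), -5.20 to 15.3 (Cd8b1) and -6.29 to 14.7 points (Cd4), SDs from -0.294 to 0.087, -0.243 to 0.135 and -0.196 to 0.084, and r of Cd8a with Cd8b1 from -0.144 to 0.094.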
